A study of Mus musculus with 4 samples.

Results

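The integrin and laminin genes form 2 families: cell-surface receptors for extracellular matrix and the trimeric basement membrane proteins that several of those receptors bind. Members were the gene probes on the array whose gene name is an integrin alpha or beta subunit, or a laminin alpha, beta or gamma chain. The rule found 36 genes (26 integrins and 10 laminins) of 29411 gene names on the array, read by 58 of its 40628 gene probes. RNA came from C3H10T1/2 cells, a mouse embryo fibroblast line, after chemical transformation. The control group (n = 2 arrays) held transformed cells, and the phorone group (n = 2 arrays) held transformed cells exposed to 2 mM phorone, an unsaturated ketone that depletes glutathione. All samples shared the transformation: 3-methylcholanthrene, a carcinogen, at 2.5 µg/ml for 2 days, 4 days of plain medium, TPA, a phorbol ester tumour promoter, at 100 ng/ml for 2 weeks, then 4 weeks of normal medium. The sources used here do not give the length of the phorone exposure or the control's vehicle. Separate cultures are not stated for the samples of a group, and the p-values therefore measure no more than the spread of these samples, possibly a technical one.

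Integrins are heterodimers of an alpha and a beta subunit that span the plasma membrane. They bind matrix proteins or counter-receptors outside the cell and, through talin, kindlin and vinculin, the actin cytoskeleton inside. Laminins are trimers of an alpha, a beta and a gamma chain that assemble into basement membranes together with nidogens, perlecan and collagen IV. In fibroblasts, integrins hold the cell to fibronectin and collagen, and transformation of fibroblasts is known for altered adhesion.

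Values are log2 processed signals relative to the 75th percentile of each array, and a call is a limma adjusted p below 0.05 (Benjamini-Hochberg over all genes). The share of spots well above background ranged from 51.1% to 52.7%. The signal at the 75th percentile ranged from 701 to 747 in control and from 563 to 572 with phorone, and the number of arrays limits the precision. All 4 arrays lay on 1 slide, the control arrays in row 1 and the phorone arrays in row 2, so that the slide row cannot be told apart from the group. All 10 fibroblast markers were above background in both groups. Their summed level, as linear signal relative to the 75th percentile, was 1572 to 1629 in control and 687 to 725 in phorone. The list was not uniform. On their brightest probes, Col1a1, Vim and Fn1 differed by -0.30, -0.36 and -0.08 and were not called. The others were called lower, with log2 differences from -0.46 (Thy1) to -4.52 (Dcn).

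The oligonucleotides below are the array's own probes for members on which the results turn. Lama4 was read by 3 probes, of which probes 1 and 3 are shown. Capitals mark the 29 bases that probes 1 and 3 share, while probe 2 shares at most 7 in a row with either. Lama1, Lamb3 and Itga7 were each read by the single probe shown. Probe 3 of Itga8 is shown because it was not well above background on any array, whereas both other Itga8 probes were in control.
Lama4 probe 1: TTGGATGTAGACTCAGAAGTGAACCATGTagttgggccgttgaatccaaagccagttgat
Lama4 probe 3: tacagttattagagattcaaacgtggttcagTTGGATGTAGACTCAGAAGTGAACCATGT
Lama1 probe 1: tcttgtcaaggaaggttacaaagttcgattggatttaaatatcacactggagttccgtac
Lamb3 probe 1: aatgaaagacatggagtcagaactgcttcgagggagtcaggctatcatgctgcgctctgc
Itga7 probe 1: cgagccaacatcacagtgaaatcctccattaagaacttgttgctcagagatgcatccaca
Itga8 probe 3: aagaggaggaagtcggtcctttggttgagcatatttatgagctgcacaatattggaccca

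Among the 26 members bright enough to test, 12 fell with phorone, 3 rose and 11 were not called. Across all 17031 genes tested, 21.3% were called lower and 24.3% higher. The median log2 difference was -0.51 over the tested members and 0.08 over all genes. A member was tested if at least 1 of its probes was well above background throughout a group, so these 26 are not all members, and a gene bright in a single group entered through that group. Among the 20 members above background on all 4 arrays, 9 were lower and 2 higher, against 19.2% and 24.4% of all genes detected likewise. Control and phorone values did not overlap in 22 of the 26, against 77.9% of all genes tested. With the arrays scaled on the spike-in controls, which moved the median of all genes by 0.44, 5 members in place of 12 were called lower and no called member turned its direction; Itga1, Itga3, Itgae, Itgb1, Itgb2, Lama5 and Lamc1 lost the call. With no filter on dim probes, Itga3, Itgae, Itgb1, Itgb2 and Lamc1 lost it. In RNA from whole cultures, fewer cells of a kind and less RNA per cell cannot be told apart.

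**Figure D1:**
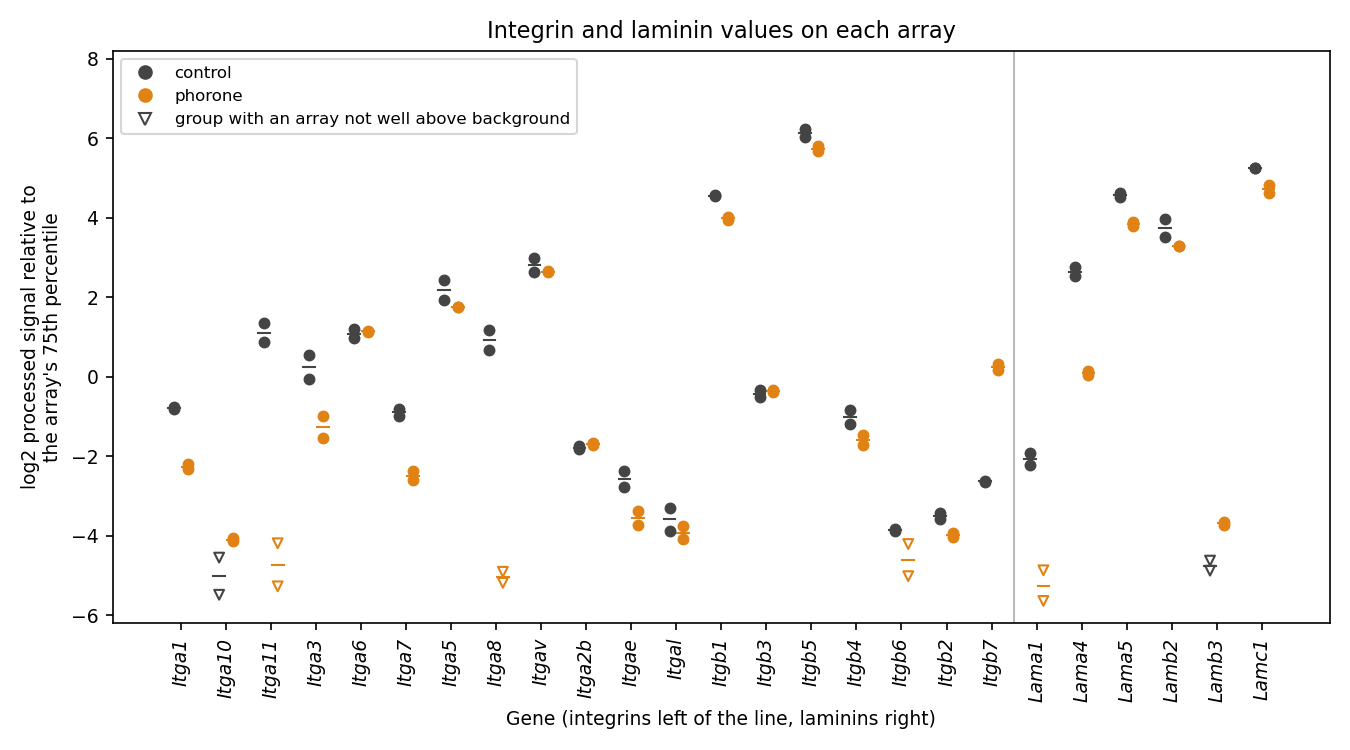
Log2 processed signal relative to the array's 75th percentile (vertical axis) of 25 tested integrin and laminin genes (horizontal axis) on each control and phorone array. Points are single arrays, short lines are group means, and open triangles mark a group in which at least 1 array was not well above background. Itgb7 lies higher on both phorone arrays, and Itga8 and Itga11 fall from 0.67 or more in control to -4.18 or less with phorone.

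The collagen-binding receptors were led by Itga11, the collagen receptor of fibroblasts. Itga11 read 1.35 and 0.88 in control and -4.18 and -5.27 with phorone, where the first array alone was well above background. Both control values stood above both phorone values, with a log2 difference of -5.84 (SE 0.39, limma adjusted p = 0.000779). With phorone 2 set to the lowest signal well above background on that array, a setting chosen after seeing the data, the difference was -5.48. Itga1, a receptor for collagen and laminin, read -0.76 and -0.82 in control and -2.20 and -2.31 with phorone, and fell by 1.47 (SE 0.12, limma adjusted p = 0.0014). Its groups did not overlap. Another Itga1 probe also fell (-1.66), and the remaining one was not called (0.30). Itga10, a collagen receptor known from cartilage, differed by 0.92 and was not called (limma adjusted p = 0.0682). Control 2 (-5.48) was not well above background, whereas control 1 (-4.55) was. Without control 1, the dim array alone stood for control, and the difference was 1.38. Itga10 was called with spike-in scaling (1.35, limma adjusted p = 0.0158). With the dim control array set to its floor, the difference was 0.58. Itga2, the other collagen-binding subunit, was not well above background on any array.

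Among the laminin-binding alpha subunits, Itga7 and Itga3 fell and Itga6 was not called. Itga7, the main laminin receptor of muscle, read -0.81 and -0.98 in control and -2.38 and -2.59 with phorone, a log2 difference of -1.59 (SE 0.15, limma adjusted p = 0.0017). Its groups did not overlap. Of 5 skeletal muscle markers, the same 2, Des and Acta1, were above background in both groups and Myog, Myh3 and Ckm in neither. The summed level of the list, most of it from Acta1, was 6.19 to 7.24 in control and 1.41 to 1.94 with phorone. Acta1 fell by 2.07 (limma adjusted p = 0.00217) and Des by 1.79 (limma adjusted p = 0.00087). The part of these markers in the Itga7 result was not tested. Itga3, a receptor for epithelial laminins, read -0.05 and 0.56 in control and -0.99 and -1.55 with phorone, and fell by 1.52 (SE 0.29, limma adjusted p = 0.0118). Control 2 was the highest array and phorone 2 the lowest, with no overlap. Another Itga3 probe fell by 1.40, and the remaining one differed by -0.43 and was not called. Itga6, which pairs with Itgb1 or Itgb4 to bind laminin, read 0.98 and 1.20 in control and 1.15 and 1.13 with phorone. Both phorone values lay between the control values, and the difference was 0.05 (SE 0.14, limma adjusted p = 0.767).

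Of the alpha subunits that recognise the RGD motif of fibronectin and related ligands, Itga8 alone was called on its brightest probe. Itga8, the receptor for nephronectin, read 1.19 and 0.67 in control and -5.18 and -4.90 with phorone. Neither phorone array was well above background, so the value there is a bound: phorone was at least 48.4-fold lower, against the higher of its own value and the lowest signal well above background on each array. The fitted difference was -5.97 (SE 0.22, limma adjusted p = 0.000259), between measured means of 0.93 and -5.04. With normexp background correction the difference was -3.68, so the bound depends on the background subtraction. Another probe, which shares no more than 6 bases in a row with the first, gave a difference of -5.38. The remaining one, printed above, was dark on all 4 arrays. Itga5, the main fibronectin receptor, read 1.92 and 2.44 in control and 1.74 and 1.75 with phorone (difference -0.43, SE 0.20, limma adjusted p = 0.134; 0.0218 without control 1). Its groups did not overlap. Itga2b, the fibrinogen receptor of platelets, differed by 0.09 and was not called. Of the other platelet markers, Gp9, Gp1ba and Ppbp were dark in both groups and Pf4 was above background in control alone, and the summed level of the 5 was 0.494 to 0.532 in control and 0.340 to 0.343 with phorone.

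Itgav, the alpha subunit of the vitronectin receptors, gave probes that disagree. Its brightest probe read 2.98 and 2.63 in control and 2.66 and 2.64 with phorone, a difference of -0.16 (SE 0.16, limma adjusted p = 0.453). Its other probe read -2.69 and -2.50 in control and -0.56 and -0.14 with phorone, and rose by 2.24 (SE 0.19, limma adjusted p = 0.0014 over all gene probes). The groups overlapped on the first probe and stood apart on the second, and the longest run of bases the 2 probes share is 7. Averaging both probes gave 1.04 (limma adjusted p = 0.00445), so the call for Itgav depends on the probe.

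Itgb1, the beta subunit shared by the collagen, laminin and fibronectin receptors, fell by 0.57 (SE 0.12, limma adjusted p = 0.0157). It read 4.57 and 4.55 in control and 4.02 and 3.95 with phorone, with no overlap. The call was lost without either phorone array (limma adjusted p = 0.0778 and 0.112), and the other Itgb1 probe differed by 0.12 and was not called. The mean of both probes was not called either (-0.23, limma adjusted p = 0.161). Itgb5, a vitronectin receptor subunit, differed by -0.39 (limma adjusted p = 0.0758), with no overlap. Itgb3, which pairs with Itgav and Itga2b, differed by 0.07 (limma adjusted p = 0.668), while its other probe fell by 0.64 (SE 0.16, limma adjusted p = 0.027 over all gene probes).

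The beta subunits of epithelia were not called. Itgb4, which anchors hemidesmosomes to laminin, read -1.18 and -0.84 in control and -1.72 and -1.46 with phorone (difference -0.58, SE 0.18, limma adjusted p = 0.0515). Its other probe, which shares 50 bases with the first, fell by 0.73 (limma adjusted p = 0.0111 over all gene probes), and 6 of the 14 alternatives run called the gene lower, among them the fit without control 1. Itgb6, an activator of latent TGF-beta with Itgav, differed by -0.76 (SE 0.28, limma adjusted p = 0.08). Phorone 1 (-5.01) was not well above background, whereas phorone 2 (-4.20) was. Without phorone 2, the dim array alone stood for phorone, and the difference was -1.16. Itgb8, another such activator, was dark on all 4 arrays.

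Itgb7, which joins Itga4 or Itgae in the homing receptors of lymphocytes, rose most among the members. It read -2.61 and -2.64 in control and 0.18 and 0.33 with phorone, a log2 difference of 2.89 (SE 0.13, limma adjusted p = 0.0003), or 7.39-fold. Its single probe was well above background on all 4 arrays, and the groups lay far apart. Of its alpha partners, Itga4 was dark on all arrays and Itgae, which binds E-cadherin, fell by 0.97 (SE 0.21, limma adjusted p = 0.0174). Itgae read -2.37 and -2.78 in control and -3.36 and -3.73 with phorone, and the call was lost without control 1 (limma adjusted p = 0.0516) or phorone 2 (0.0657). Itgb2, the beta subunit of leukocytes, read -3.57 and -3.43 in control and -4.04 and -3.93 with phorone, and fell by 0.48 (SE 0.13, limma adjusted p = 0.0339). Its groups did not overlap, but its call was lost without control 2 (limma adjusted p = 0.0807), phorone 1 (0.191) or phorone 2 (0.121), and with normexp background correction (0.475). Itgal, its partner in lymphocytes, differed by -0.33 with overlapping groups (limma adjusted p = 0.297), and Itgam, Itgax and Itgad were dark on all arrays. Among the 9 leukocyte markers, the defining genes Ptprc, Adgre1, Itgam and Laptm5 were not well above background on any array. Above background on both arrays were 4 in each group, not all of them the same: Cd68, Cd3e and Cd14 were so in both groups, and Csf1r with phorone alone. Cd68, a macrophage marker, rose by 1.26 (limma adjusted p = 0.00938), and Csf1r differed by 1.33 and was not called (limma adjusted p = 0.116). The summed level of the 9 was 3.94 to 4.80 in control and 5.02 to 5.06 with phorone. Most of it came from Cd14, which differed by 0.13 and was not called (limma adjusted p = 0.52). The part of these markers in the Itgb7 result was not tested.

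**Figure D2:**
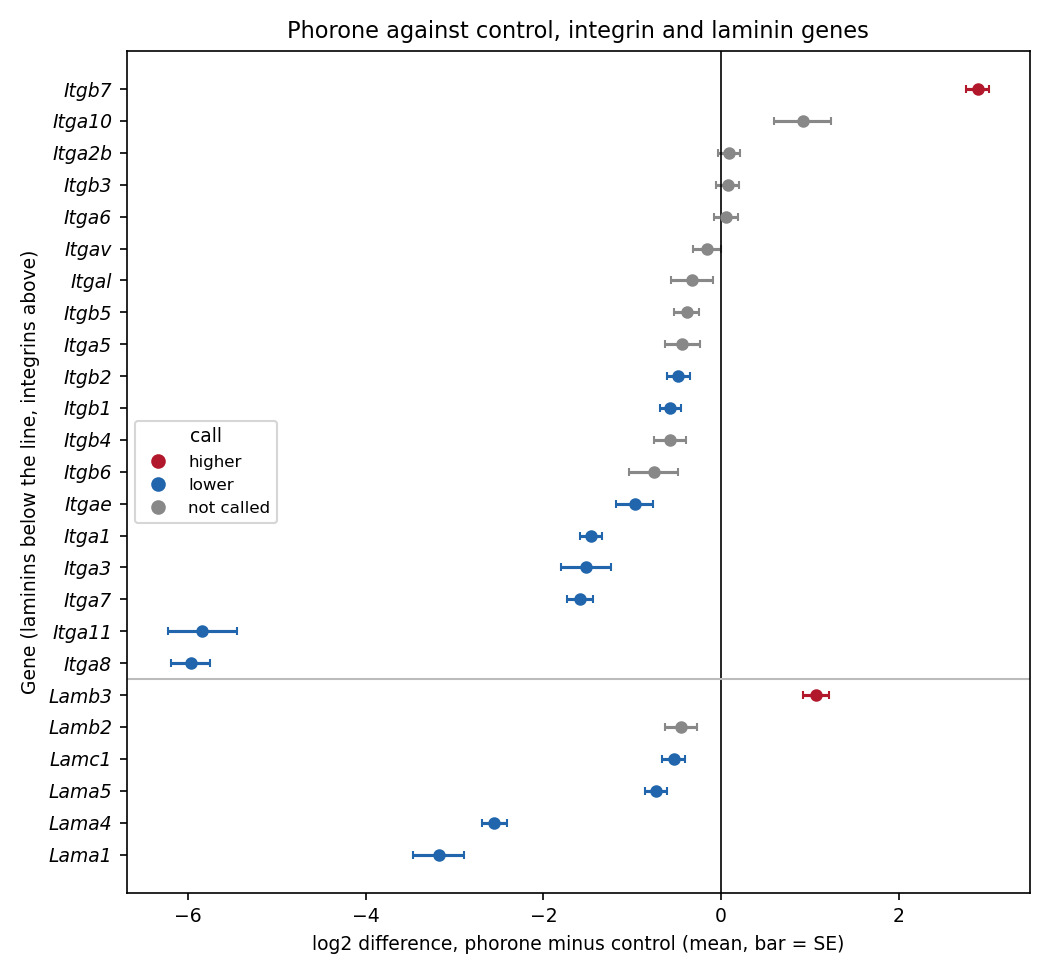
Log2 difference, phorone minus control (horizontal axis, mean with SE), of 25 tested genes (vertical axis, laminins below the line), coloured by call. Itgb7 (2.89) and Lamb3 (1.07) lie to the right of 0 among the called members, and Itga8 and Itga11 lie farthest to the left; Itga8 and Lama1 have only a bound in phorone.

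The 3 laminin alpha chains that could be tested were called lower with phorone, against 21.3% of all genes tested. Of these, Lama1 entered the test through control alone. Lama4, the alpha chain of vessels and mesenchyme, read 2.53 and 2.76 in control and 0.04 and 0.14 with phorone on its brightest probe. Every control value stood above every phorone value, with a log2 difference of -2.55 (SE 0.14, limma adjusted p = 0.0005), or 5.87-fold. Probe 2, which reads another stretch, fell by 2.52, and probe 3 fell by 2.71. Lama1, the alpha chain of early embryonic basement membranes, read -2.22 and -1.92 in control and -4.86 and -5.64 with phorone. Neither phorone array was well above background, and phorone was at least 6.07-fold lower. The fitted difference was -3.18 (SE 0.29, limma adjusted p = 0.0016), between measured means of -2.07 and -5.25. With normexp background correction the difference was -1.26, so this bound too depends on the background subtraction. Lama5, the most widespread alpha chain of adult tissues, read 4.63 and 4.53 in control and 3.80 and 3.89 with phorone, and fell by 0.74 (SE 0.12, limma adjusted p = 0.0086). Its groups did not overlap, and the call was lost without phorone 1 (limma adjusted p = 0.0542). Lama2, the alpha chain of muscle, and Lama3, that of skin, were dark on all arrays.

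Of the laminin beta chains, Lamb3 rose. It belongs, with Lama3, to the laminin of the epidermal basement membrane. Lamb3 read -4.62 and -4.87 in control, where 1 array was well above background, and -3.65 and -3.72 with phorone (difference 1.07, SE 0.14, limma adjusted p = 0.00463). Both phorone values lay above both control values, while its alpha partner Lama3 was not well above background on any array. Of 7 epithelial markers, 3 (Krt5, Krt8 and Krt14) were above background on both arrays of each group. Cdh1, Krt18 and Krt19 were dark in both groups, and Epcam was above background on 1 control array alone. The summed level was 0.270 to 0.305 in control and 0.335 to 0.464 with phorone. Krt5 read -4.52 and -3.97 in control and -2.02 and -3.54 with phorone, and was not called (limma adjusted p = 0.0728). Krt8 and Krt14 differed by 0.08 and -0.07 and were not called. The part of these markers in the Lamb3 result was not tested.

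Lamc1, the gamma chain of most laminin trimers, read 5.26 and 5.25 in control and 4.82 and 4.62 with phorone. The groups did not overlap and the fall was 0.54 (SE 0.13, limma adjusted p = 0.0267), but the call was lost when any 1 of the 4 arrays was left out (limma adjusted p = 0.0603 to 0.182). Lamb2, a beta chain of synapses and kidney, differed by -0.45 (SE 0.18, limma adjusted p = 0.0981; 0.0236 without control 1). Lamc3 was above background on the first phorone array alone and was not tested. Lamb1, the beta chain that pairs with Lamc1 in most tissues, is listed on the array under an older name that the rule does not take. It read 3.96 and 3.94 in control and 3.02 and 2.84 with phorone, with no overlap, and fell by 1.02 (SE 0.13, limma adjusted p = 0.004).

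**Figure D3:**
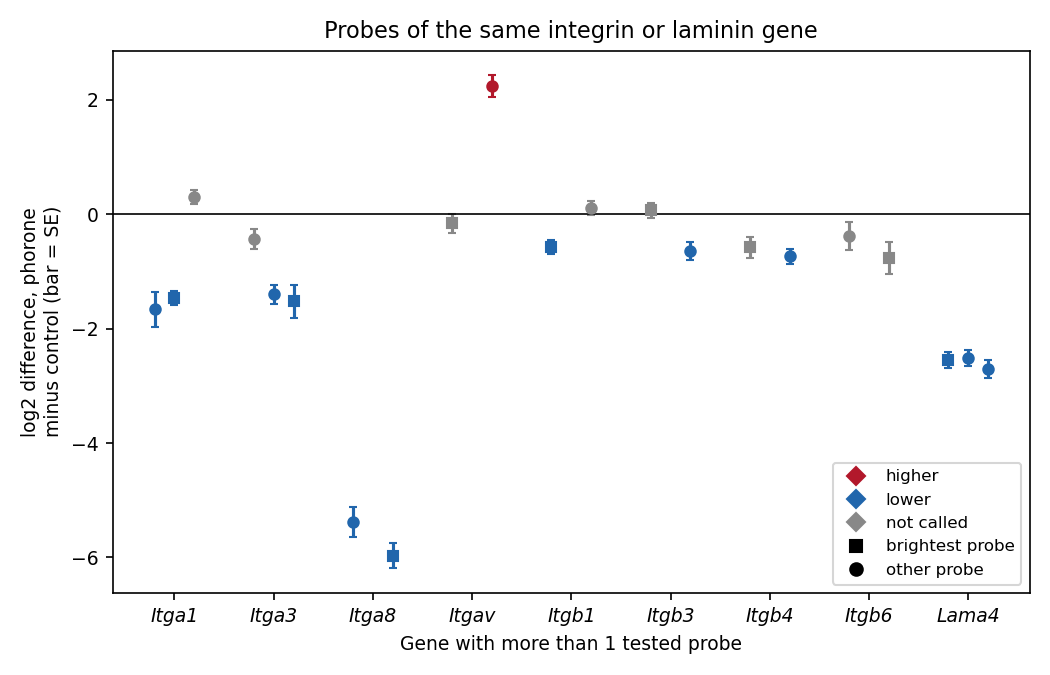
Log2 difference, phorone minus control (vertical axis, with SE), of each tested probe of the 9 members that have more than 1 (horizontal axis), coloured by call; squares mark the brightest probe, which stood for the gene. The 3 Lama4 probes lie between -2.71 and -2.52, while the 2 Itgav probes lie at -0.16 and 2.24.

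How many member probes counted as detected depended on the criterion. Of the 58, those well above background numbered 38 and 36 in control, and 34 and 33 with phorone. By the scanner software's looser call of a positive and significant signal, they numbered 45 and 43 in control and also 45 and 43 with phorone. Well above background were 26 and 24 of the 36 genes in control and 24 and 23 with phorone. Dark on every array were Itga2, Itga4, Itga9, Itgad, Itgam, Itgax, Itgb8, Lama2 and Lama3. Of the 38 probes tested, 19 were called lower and 4 higher, against 20.3% and 25.5% of all gene probes tested. With more than 1 tested probe there were 9 members, no member had probes called in opposite directions, and the probes of 6 differed in whether they were called.

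The windows before the starts of Itga8, Itga11 and Itgb7, the members with the largest differences each way, are given from RefSeq (GRCm38.p6), 250 bases upstream of the start, 5′ to 3′ along the gene, with CG dinucleotides in capitals.
Itga8, chr2:12301945-12302194, minus strand: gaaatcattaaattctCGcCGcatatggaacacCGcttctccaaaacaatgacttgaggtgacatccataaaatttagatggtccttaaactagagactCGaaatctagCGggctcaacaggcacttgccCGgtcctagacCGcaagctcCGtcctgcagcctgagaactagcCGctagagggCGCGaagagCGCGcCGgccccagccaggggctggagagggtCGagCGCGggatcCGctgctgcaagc
Itga11, chr9:62677605-62677854, plus strand: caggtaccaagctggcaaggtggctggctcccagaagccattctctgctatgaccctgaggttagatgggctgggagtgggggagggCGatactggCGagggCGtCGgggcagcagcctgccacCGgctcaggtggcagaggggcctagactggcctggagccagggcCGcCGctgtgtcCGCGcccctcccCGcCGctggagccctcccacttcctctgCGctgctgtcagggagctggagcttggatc
Itgb7, chr15:102231936-102232185, minus strand: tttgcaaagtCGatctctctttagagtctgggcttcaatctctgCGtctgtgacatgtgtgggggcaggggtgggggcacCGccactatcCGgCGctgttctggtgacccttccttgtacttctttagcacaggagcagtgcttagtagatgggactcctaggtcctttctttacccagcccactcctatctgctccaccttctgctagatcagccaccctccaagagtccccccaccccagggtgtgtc

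These windows held 18, 12 and 5 CG dinucleotides, at a GC content of 56.4%, 68.4% and 56.0%, against a median of 52.4% over 32851 windows. A window was used for 22 of the 36 members (25 windows). Any member windows on 1 chromosome were left out, while the set of all windows kept that chromosome. On either strand, the NRF2 element TGACNNNGC was found in 3 of the 25, against 10.2% of all windows, and the AP-1 letters TGANTCA in 1, against 6.75%. The GC box GGGCGG was found in 8, against 32.7% of all windows, the TEAD letters CATTCC in 3, against 12.6%, and TATAAA in 0, against 12.4%. None of the 5 was found in the 3 printed windows. Such matches describe letters only; they are neither sites nor causes.

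Genes that work with the integrins and laminins were read as 5 lists. The adhesion machinery links integrins to actin and to signalling, and 13 of its 32 tested genes fell, 1 rose and 18 were not called (median log2 difference -0.30), against 21.3% lower and 24.3% higher among all genes. Tns1, a tensin that binds beta tails, fell by 2.34, the scaffold Nedd9 by 1.65, Tln1, the talin that activates integrins, by 1.18 and the kinase Ptk2b by 1.15. Ilk, the integrin-linked kinase, fell by 0.75. Vcl, vinculin, fell by 0.88 on its brightest probe and differed by 0.02 on another. Ptk2, focal adhesion kinase, differed by -0.22 and was not called, while its other probe was called higher at 0.64. Sharpin, an inhibitor of integrin activation, rose by 0.43, a call that was lost under 9 of the 14 alternatives run.

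Basement membrane partners of the laminins were lower in 11 of 17 tested genes and higher in 0 (median -0.84), against 21.3% and 24.3% of all genes. Smoc2, a matricellular protein, fell by 4.99, Nid2, a nidogen that links laminin to collagen IV, by 2.32, Agrn, agrin, by 1.77 and Ntn1, a laminin-related guidance protein, by 1.74. Hspg2, perlecan, fell by 1.39. Nid1, the other nidogen, differed by -0.26 and was not called. Col4a1 fell by 0.73 on its brightest probe, while another differed by -0.08. The other laminin receptors, which are dystroglycan with its complex and the enzymes that glycosylate it, and the separate receptors Bcam and Rpsa, had 9 of 16 lower and 1 higher (median -0.91; 21.3% and 24.3% of all genes). Sspn, sarcospan, fell by 1.37, Dag1, dystroglycan itself, by 1.05 and Sgcd, a sarcoglycan, by 1.00.

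Ligands of integrins other than laminins had the largest shift of the 5, with 20 of 27 tested genes lower and 2 higher (median -1.50; 21.3% and 24.3% of all genes). Tgfbi, a TGF-beta-induced matrix protein, fell by 6.56, and the collagen VI chains Col6a3, Col6a2 and Col6a1 fell by 5.11, 4.01 and 3.93. Fn1, fibronectin, differed by -0.08 and was not called on any of its probes. Mfge8, an RGD protein that bridges cells to phagocytes, rose by 0.62. Icam2, a ligand of leukocyte integrins, was dark in control and at least 2.07-fold higher with phorone. Tetraspanins and other lateral partners of integrins were called lower in 6 of 15 and higher in 3 (median -0.19). This compares with 21.3% and 24.3% of all genes, so that the share called higher lay near that of all genes. Slc3a2 counted as not called (difference 5.50, SE 2.71, limma adjusted p = 0.155). Its brightest probe read 4.82 and -3.77 in control and 5.90 and 6.16 with phorone. Its other probe was called higher (1.22, limma adjusted p = 0.0172 over all gene probes). Plaur, the urokinase receptor, rose by 1.80, and the tetraspanins Cd9 and Cd63 rose by 0.87 and 0.44. The syndecan Sdc1 fell by 1.91, the tetraspanin Cd82 by 1.44, Bsg, basigin, by 0.61 and Cav1, caveolin, by 0.59, although another Cav1 probe differed by -0.02. With spike-in scaling the genes called lower in the 5 lists, in the order given, numbered 2, 5, 2, 13 and 1. The lists too hold genes that were tested through 1 group, such as Bcam and Icam2. With only genes above background on all 4 arrays fitted, the tested genes numbered 31, 16, 14, 25 and 15 in that order. Of these, 15, 10, 8, 19 and 6 were lower and 1, 0, 1, 1 and 3 higher. Among all 15716 genes of that fit, 3276 were lower and 4226 higher.

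**Figure D4:**
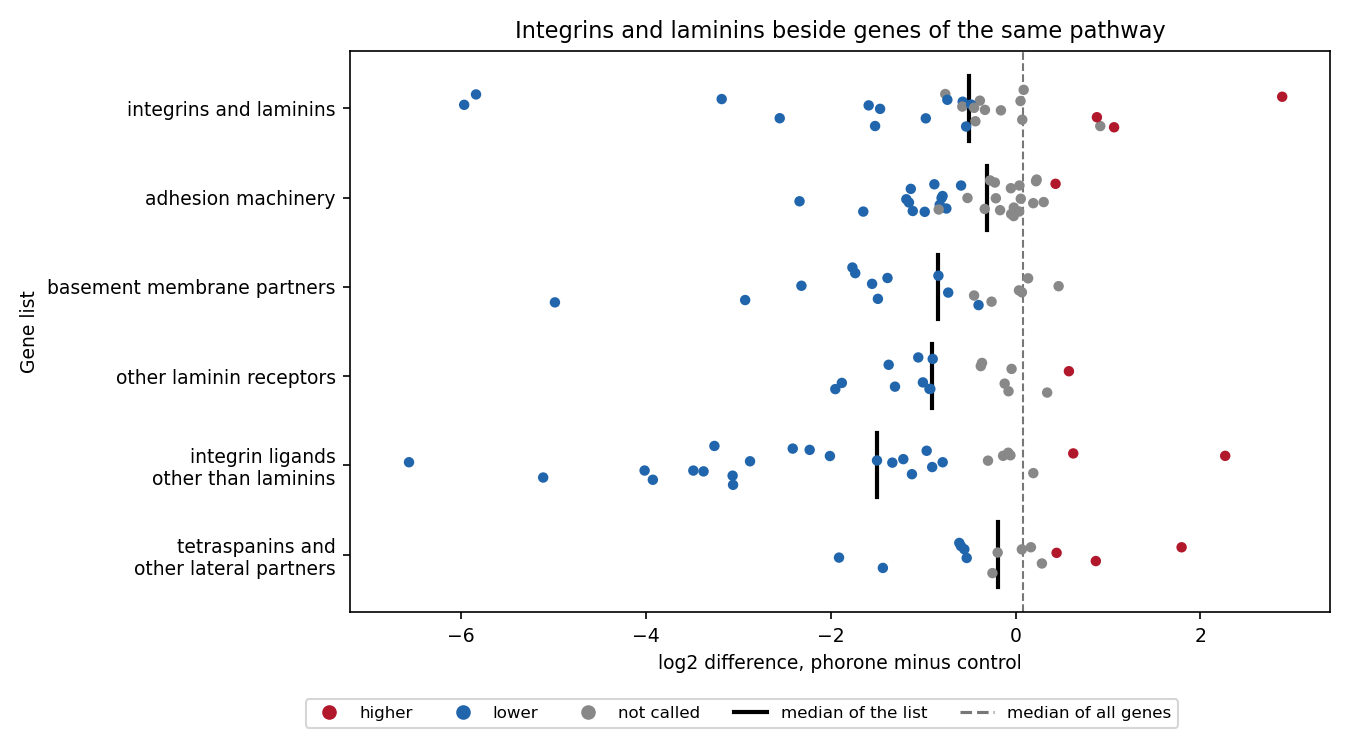
Log2 difference, phorone minus control (horizontal axis), of the tested integrins and laminins and the tested genes of the 5 lists (vertical axis). Black lines are list medians, and the dashed line is the median of all genes (0.08). Slc3a2, a lateral partner (5.50, not called), lies beyond the axis and is not drawn, although its value counts in the median. The medians of the 5 lists lie between -1.50 (ligands) and -0.19 (tetraspanins and lateral partners), and that of the integrins and laminins at -0.51.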

How the data were processed

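Intensity values were produced with Feature Extraction 10.7.3.1, per the file headers, from a single-colour (Cy3) custom mouse array, with background subtraction and detrending within each array and no scaling between arrays. Flags for spots well above background came with those files. The value table the authors deposited holds log2 numbers that equal the log2 processed signal minus 1 number per array, which lay at that array's 75th percentile. Its column medians were -4.39, -4.35, -4.37 and -4.30.

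From the processed signal, log2 values minus each array's 75th percentile were taken. Spots flagged as outliers were left out (111 probes), probes were kept where both arrays of 1 group or of both were well above background, and each gene was read by its brightest kept probe (17031 genes). RefSeq names (GRCm38.p6) matched 28128 gene probes (69.2%); other probes kept the design's name. The 2 groups were fitted in limma 3.58.1 under R 4.3.3 (lmFit and eBayes, two-sided, 2 residual and 3.03 prior degrees of freedom). On simulated data with 17031 genes, 100 were changed by 1 on the log2 scale and 100 by 2. Of these, 74% and 100% were recovered, with 12 false calls. In the data 7755 genes were called, far more than were changed there, so these rates need not hold for the data. Groups and replicate numbers came from sample titles. The members and lists were chosen with earlier results of these data known. From each list, up to 4 called genes each way with the largest change among those above background on all 4 arrays were named. Tln1, Vcl, Ilk, Ptk2, Nid1, Hspg2, Col4a1, Dag1 and Fn1 were named with them. Icam2 and Slc3a2 were added after their values were seen. Some genes and sequences that these rules take, although counted, are not reported here. Marker lists also covered Schwann and endothelial genes, of which 3 and 1 were above background in control and 2 and 0 with phorone; the summed level of the Schwann list was 0.313 to 0.368 in control and 0.645 to 0.695 with phorone, with Mbp called higher (2.37), and that of the endothelial list was 0.115 to 0.119 and 0.0477 to 0.0729.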

Additional observations from a re-analysis of the deposited data

How the results depend on the processing

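With 14 alternatives run, called members kept their direction in all 206 values and their call in 179; 8 stayed called wherever they were tested, among them Itga11, Itga7, Itga8, Itgb7, Lama1, Lama4 and Lamb3. Spike-in scaling gave 1203 genes lower, 5 member genes and 9 member probes lower; Itga1 (-1.03, limma adjusted p = 0.075) and Itga3 then lost their calls. It turned the uncalled Itga5 (0.00022), Itgav (0.28), Itgal (0.10) and Itgb5 (0.049); normexp turned Itgal (0.087), and the mean of probes Itgav (1.04) and Itgb3 (-0.28). Leaving out 1 array gave -0.058 to 0.17 for Itga6, -0.33 to 0.017 for Itgav and -0.012 to 0.16 for Itgb3, each turned without control 1. Apart from the scaling and filter themselves, the cause was not tested. With no filter on dim probes, 2305 genes were higher and 7 members lower; leaving out 1 array gave 2086 (phorone 2) to 3961 (control 1) genes higher, with 2516 without phorone 1. The lists' counts of lower genes became 2, 5, 2, 13 and 1 with spike-in scaling, in the order of the text; with no filter 5 laminin receptors and 2 lateral partners were lower, and without either phorone array 2 lateral partners. Of higher genes, adhesion machinery had 0 with no filter, quantile, median or spike-in scaling, noncoding probes in the fit, the replicate block, or without control 1 or either phorone array, and 4 with the mean of probes. Basement membrane partners had 1 with no filter or without control 2; laminin receptors had 0 with no filter, spike-in scaling, or without either control array or phorone 2, and 2 with the mean of probes; other ligands had 1 with all-4-array detection, spike-in scaling or without either phorone array. No label says whether the shared replicate numbers pair the samples. Replicate 1 minus 2 differences of control and phorone had r = -0.02 across 17031 genes, which are not replicates. A pairing with small effects could give the same value, so this correlation cannot decide it. With the replicate block, 3629 genes were higher and 3369 lower. Itgb2 then lost its call (limma adjusted p = 0.0611), and Itga10 (0.039) and Itgb4 (0.0363) were called. Normexp kept the calls of the called members with a dim array but shrank their differences. These were then -3.68 for Itga8, -3.76 for Itga11, -1.26 for Lama1 and 0.40 for Lamb3. Dim signal limits the 9 members dark on all arrays.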
